A study of Mus musculus with 8 samples.

Results

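The genes described here encode the WNT ligands, the Frizzled receptors and the secreted and membrane proteins that tune them, measured in sorted alveolar epithelial cells of embryonic mouse lungs. They were chosen by symbol in the array's annotation: every Wnt, Fzd, Sfrp, Dkk and Rspo gene with a number, together with Lrp5, Lrp6, Lgr4, Lgr5, Lgr6, Porcn, Wls, Axin2, Lef1 and Tcf7. This gave 51 genes of the 24568 genes measured, on 79 spots of the array. The brightest spot by the mean of the 8 arrays stood for each gene. For 28 of the genes there was 1 spot, and none was lost for a missing value. They comprised 19 Wnt genes, 10 Fzd genes, 4 each of Sfrp, Dkk and Rspo, 3 Lgr genes, 2 Lrp genes, 2 genes of ligand export, 2 TCF genes and Axin2.

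The cells came from lungs in which Fgfr2b signaling was inhibited in vivo between E16.5 and E18.5 of embryonic development (mutant) or from wild-type lungs (WT), and were isolated by fluorescence-activated cell sorting as alveolar type I cells (AECI), which line the gas exchange surface, or alveolar type II cells (AECII), which make surfactant. Fgfr2b is the epithelial splice form of a fibroblast growth factor receptor. There were 2 arrays for each population of each genotype, submitted as biological replicates, which makes 4 groups. The sources used here do not say how the inhibition was driven, in which strain, which markers the sort used or whether embryos were pooled.

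Levels are log2 signals of a quantile-normalized array with a median of 5.01, so a difference of 1 is a 2-fold change, and tests were made only within a gene. Signals called dim are so relative to the olfactory receptor genes described below. With the genotypes averaged, 19 of 20 AECI markers were higher in AECI at a limma adjusted p under 0.05, against 5.8% of all genes. By the same test 19 of 20 AECII markers were lower in AECI, against 9.01% of all genes. However, 13 of 17 ciliated cell markers and 5 of 12 club cell markers were lower in AECI by this test as well. At an unadjusted p under 0.05, 7 of the 12 club cell markers were lower. The summed club cell signal was 16.58 to 16.83 on the AECII arrays and 11.76 to 14.04 on the AECI arrays, and the part of airway cells in the differences between AECI and AECII was not tested. On WT AECI replicate 1, 6 of 8 basal cell markers exceeded every other array by more than 1 on the log2 scale, and for the WNT genes named for a call or a small p, differences that leaving out this array moved by over 1.5 times or whose call it changed are given without it as well. All 4 WT arrays had high Xist (12.4 to 13.2, against 3.50 to 5.14 in mutant) and low Uty, so that genotype and sex cannot be told apart. In such bulk samples, fewer cells of a type and less RNA per cell cannot be told apart.

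WNT ligands are lipid-modified by the acyltransferase Porcn and carried to the cell surface by Wls. On the receiving cell they bind a Frizzled together with Lrp5 or Lrp6, which stabilizes beta-catenin so that it can act with TCF and LEF factors, and Axin2 is a feedback target widely read as a sign of this branch. R-spondins and their Lgr receptors raise Frizzled levels, Sfrp proteins bind ligands outside the cell and Dkk proteins block the Lrp co-receptors. In the lung, Wnt2 and Wnt2b of the mesenchyme specify the organ, Wnt7b and Wnt5a act in its growth and shape, and WNT signaling supports a stem cell fraction of AECII.

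The data showed a small group of ligands that separated AECI from AECII in both genotypes. Wnt3a, Wnt7a and, at signals mostly within the range of genes not known to be used in lung epithelium, Wnt9a were higher in AECI than in AECII in WT and again in mutant, and Wnt4 and Fzd2 were higher in AECI once the genotypes were averaged. Their sequences upstream of the start site are shown first, because these ligands rose together and because Wnt3a and Wnt9a are neighboring protein-coding genes on chromosome 11. Promoter sequences from RefSeq (GRCm38.p6) were on hand for 33 of the 51 genes. The 250 bases before each annotated start are printed 5′ to 3′ on the strand of the gene, and capitals mark matches to GGGCGG on either strand, a GC box bound by factors of the SP and KLF families, which may overlap, and to TATAA, the core of a TATA box.

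Wnt3a chr11:59290752-59291001 (-): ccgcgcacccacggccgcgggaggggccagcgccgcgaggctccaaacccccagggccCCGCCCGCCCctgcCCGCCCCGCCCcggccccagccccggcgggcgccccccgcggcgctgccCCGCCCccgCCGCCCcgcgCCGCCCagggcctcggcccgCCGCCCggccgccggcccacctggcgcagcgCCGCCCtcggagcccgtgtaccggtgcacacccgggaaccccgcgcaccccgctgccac
Wnt9a chr11:59306680-59306929 (+): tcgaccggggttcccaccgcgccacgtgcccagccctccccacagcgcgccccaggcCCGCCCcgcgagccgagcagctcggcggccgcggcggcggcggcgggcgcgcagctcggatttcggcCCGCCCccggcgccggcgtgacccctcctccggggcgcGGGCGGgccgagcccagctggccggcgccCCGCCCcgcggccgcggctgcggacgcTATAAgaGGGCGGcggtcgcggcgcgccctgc
Wnt7a chr6:91411354-91411603 (-): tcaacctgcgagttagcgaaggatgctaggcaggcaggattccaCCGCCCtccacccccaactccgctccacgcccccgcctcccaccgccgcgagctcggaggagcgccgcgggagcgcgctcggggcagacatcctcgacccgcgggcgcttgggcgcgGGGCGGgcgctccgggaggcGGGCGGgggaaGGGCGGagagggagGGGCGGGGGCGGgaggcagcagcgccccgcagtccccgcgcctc
Wnt4 chr4:137277385-137277634 (+): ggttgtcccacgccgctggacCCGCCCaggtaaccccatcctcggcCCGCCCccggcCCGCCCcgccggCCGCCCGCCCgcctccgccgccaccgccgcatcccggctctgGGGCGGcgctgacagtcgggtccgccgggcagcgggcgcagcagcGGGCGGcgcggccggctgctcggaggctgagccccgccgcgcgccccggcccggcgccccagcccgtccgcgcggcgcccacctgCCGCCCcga

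All these stretches were rich in G and C. The share of G and C was 87.6% upstream of Wnt3a, 84.4% upstream of Wnt9a, 77.6% upstream of Wnt7a and 85.2% upstream of Wnt4, against a median of 52.4% over the 32851 promoters of the table. They held 41, 48, 34 and 44 CG dinucleotides in that order, against a median of 6. The GC box matched 9 times upstream of Wnt3a, 5 times upstream of Wnt9a, 6 times upstream of Wnt7a and 8 times upstream of Wnt4. It was found in 25 of the 33 genes with a promoter (75.8%) and in 32.7% of all promoters of this length. TATAA was matched once, in Wnt9a at 32 bases before the start, and is held by 22.8% of all promoters on either strand. None of the 4 stretches held GGAATG (TEAD factors, in 12.6% of all promoters), CTTTGAT (TCF and LEF factors, 3.21%), CTCAAG (NKX2-1, 13.3%) or TGANTCA (AP-1, 6.75%) on either strand. These matches describe letters in a short window only.

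To place dim signals, 1082 olfactory receptor genes, which lung epithelium is not known to use, were read on the same arrays. Their medians were 3.25 to 3.40 and their 95th percentiles 5.91 to 6.47. By this scale, 24 of the 51 genes (47.1%, against 47.7% of all genes) had a mean below the olfactory 95th percentile in all 4 groups, and 27 did not. The genes within the olfactory range included all 4 Dkk and all 4 Rspo genes, 10 of 19 ligands (Wnt2, Wnt2b, Wnt3, Wnt6, Wnt8a, Wnt8b, Wnt9b, Wnt10a, Wnt10b and Wnt16), Fzd3, Fzd9, Fzd10, Sfrp1, Sfrp4 and Lef1. A signal in that range does not show that a gene was silent, and fold changes of such genes carry little weight.

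The first comparison asked how AECI and AECII differed in WT. Limma, with Benjamini-Hochberg adjustment over all genes, called 3 of the 51 genes (5.88%), all higher in AECI, at an adjusted p under 0.05, against 7.01% of all genes (2.87% higher in AECI). The median log2 difference was 0.23 over the 51 genes and 0.00 over all genes. Mutant cells share no array with WT, but both tests used a variance per gene pooled over all 8 arrays, so they are not independent. In mutant, 3 of the 51 genes were called, again all higher in AECI, against 7.8% of all genes (2.93% higher in AECI), with medians of 0.08 and 0.02. The 3 genes were Wnt3a, Wnt7a and Wnt9a in each case. Averaging over the genotypes, 8 genes (15.7%) were called, against 14.8% of all genes. Of these, 6 were higher in AECI (background 5.8%) and 2 were lower (background 9.01%). The share of called genes was thus close to the background in each of these comparisons. The difference between AECI and AECII had the same direction in both genotypes for 34 of the 51 genes (66.7%), as for 68.5% of all genes.

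Wnt3a, which drives formation of the posterior body axis, showed the widest range of the ligands. Its log2 signals were 9.78 and 10.68 in AECI of WT lungs and 10.41 and 10.48 in AECI of mutant lungs, against 4.54 and 3.60 in AECII of WT and 5.70 and 6.63 in AECII of mutant lungs. Every AECI array was above every AECII array by more than 3 on this scale. The difference was 6.16 in WT (95% CI 4.997 to 7.32, adjusted p = 0.00185) and 4.28 in mutant (95% CI 3.12 to 5.44, adjusted p = 0.00424). The WT AECII signals lay within the olfactory range, so the 71.4-fold difference in WT rests on a dim reading. With WT AECII raised to the olfactory 95th percentile of its own arrays the difference was 18.9-fold, and 18.0-fold in mutant when handled alike.

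Wnt7a, a ligand of limb and reproductive tract patterning, had signals of 11.54 and 11.64 in AECI of WT lungs and 11.32 and 11.55 in AECI of mutant lungs, against 6.66 and 7.44 in AECII of WT and 7.40 and 7.89 in AECII of mutant lungs. The signals lay above the olfactory range in all 4 groups and the populations did not overlap. The difference was 4.54 in WT (95% CI 3.72 to 5.36, adjusted p = 0.00171), a 23.2-fold change, and 3.79 in mutant (95% CI 2.97 to 4.61, adjusted p = 0.00206), a 13.9-fold change. Another spot for Wnt7a gave 4.70 in WT and 3.43 in mutant, so that the result did not hang on the choice of spot.

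Wnt9a, known for its part in joint formation, had signals of 5.71 and 6.13 in AECI of WT lungs and 7.34 and 6.72 in AECI of mutant lungs, against 3.11 and 3.61 in AECII of WT and 3.89 and 4.11 in AECII of mutant lungs. The populations did not overlap, but only mutant AECI had a mean (7.03) above the olfactory 95th percentile. The difference was 2.56 in WT (95% CI 1.75 to 3.37, adjusted p = 0.00767) and 3.03 in mutant (95% CI 2.23 to 3.84, adjusted p = 0.00401). The WT call was lost without WT AECII replicate 1 (adjusted p = 0.054). With AECII raised to the olfactory 95th percentile as for Wnt3a, AECI was 2.10-fold higher in mutant. No difference was left in WT (-0.07 on the log2 scale), where AECI itself lay within the range.

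The start sites of Wnt3a and Wnt9a are 16179 bases apart and face away from each other, with no other protein-coding gene between them in the RefSeq table. Neighbors were sought among protein-coding genes only. The genes flanking the pair were read after the values of the pair were known. Arf1, Prss38, Snap47, Jmjd4, Mrpl55 and 2310033P09Rik were not called between the populations in either genotype. Arf1, a GTPase of vesicle traffic beside Wnt3a, differed by 0.13 when the genotypes were averaged (95% CI -0.33 to 0.58, adjusted p = 0.731), and Prss38, a serine protease gene beside Wnt9a, by 0.27 (95% CI -0.38 to 0.92, adjusted p = 0.583). Prss38 read 2.40 to 3.50 over all arrays, near the olfactory median, so its lack of a difference carries little weight. The difference was thus detected for the ligand pair and not for Arf1 or the other flanking genes with brighter signals. Other ligands that are neighbors on a chromosome were not called. Among them Wnt9b, a ligand of kidney tubule induction, differed by 0.93 (adjusted p = 0.0923) beside Wnt3, and Wnt10b by -0.46 beside Wnt1. Wnt6 and Wnt10a form the fourth such pair. In these other pairs all genes but Wnt1 were within the olfactory range, so the lack of a call carries little weight.

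**Figure D1:**
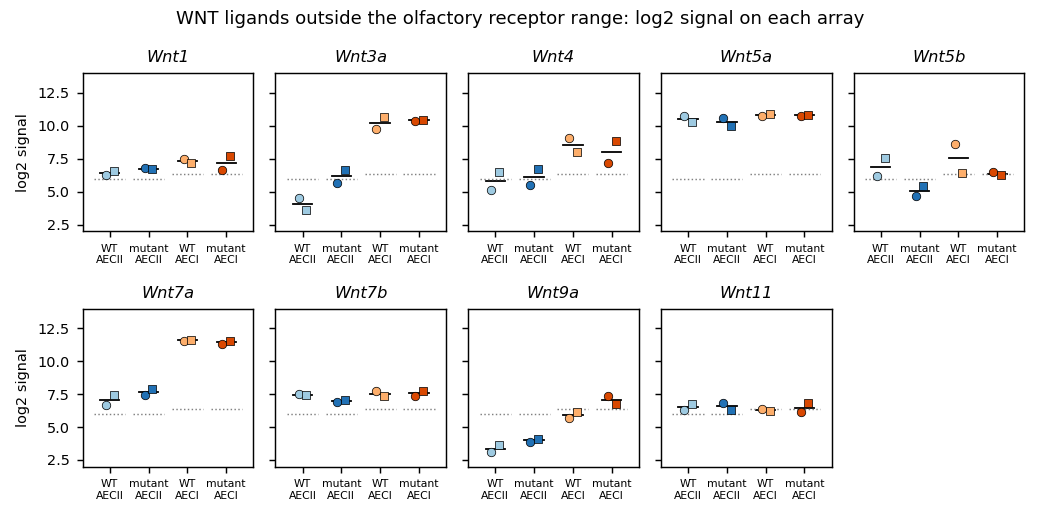
Log2 signal of the 9 WNT ligands that were not within the olfactory receptor range in all groups, by group. Circles are replicate 1, squares are replicate 2, black bars are group means of 2 arrays and dotted lines are the olfactory 95th percentile. Wnt3a, Wnt7a, Wnt9a and Wnt4 lie higher on all 4 AECI arrays than on any AECII array, while Wnt5a lies between 10.01 and 10.88 everywhere.

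Wnt4, a ligand of kidney and gonad development, had signals of 9.10 and 8.05 in AECI of WT lungs and 7.16 and 8.84 in AECI of mutant lungs, against 5.15 and 6.51 in AECII of WT and 5.51 and 6.71 in AECII of mutant lungs. The 4 AECI arrays lay above the 4 AECII arrays, but replicates differed by more than 1 in each group. Wnt4 was not called within a genotype (adjusted p = 0.09 in WT and 0.21 in mutant). It was called over both, with a difference of 2.32 (95% CI 1.04 to 3.60, adjusted p = 0.0308). With AECII raised in the same way, AECI was 4.02-fold higher over both genotypes, 4.99-fold in WT and 3.23-fold in mutant. The call was lost on leaving out any of WT AECII replicate 1 (adjusted p = 0.0949), mutant AECII replicate 1 (0.101), WT AECI replicate 1 (0.0799) or mutant AECI replicate 2 (0.075).

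The remaining ligands showed no called difference. Wnt5a, which mainly uses beta-catenin-independent pathways, ranged from 10.01 to 10.88 over the 8 arrays, with no AECI array below an AECII array. Its difference was 0.39 with the genotypes averaged. The other Wnt5a spots were dim, with means of 3.64 and 3.23, and differed by 0.56 and -0.66, so these readings rest on the spot used. Wnt7b, a ligand of the embryonic airway epithelium, ranged from 6.92 to 7.76. Wnt11, which takes part in branching of the ureteric bud, ranged from 6.12 to 6.81. Wnt1, the founding member of the family, ranged from 6.30 to 7.74. For Wnt5b, the remaining ligand outside the olfactory range, the spread between replicates was wide in WT. It had signals of 8.62 and 6.44 in AECI of WT lungs and 6.47 and 6.28 in AECI of mutant lungs. On the AECII arrays it was 6.20 and 7.59 in WT and 4.67 and 5.45 in mutant. Wnt2b, a ligand of lung specification that the mesenchyme makes, lay within the olfactory range in all groups. It was 5.03 and 4.79 in AECI of WT lungs and 4.49 and 5.91 in AECI of mutant lungs. In AECII it was 4.82 and 3.85 in WT and 5.84 and 3.08 in mutant. On the AECII arrays the collagen gene Col3a1, a mesenchymal marker, was 9.17 and 5.45 in WT and 9.04 and 4.06 in mutant. The array of each AECII pair with the higher Wnt2b thus also had the higher Col3a1. This held in mutant AECI (5.53 and 9.45) and not in WT AECI (4.49 and 7.68). Most other mesenchymal markers on the AECII pairs, among them Col1a1, Col1a2, Pdgfra, Tbx4, Tcf21 and Fn1, also ran with Wnt2b in both genotypes. Acta2, Dcn and Lum ran against it in both, and Fgf10 and Tagln in WT only. The median of 20 mesenchymal markers was 6.26 and 4.13 in WT AECII and 6.002 and 3.72 in mutant AECII. In AECI it was 4.28 and 4.72 in WT and 4.29 and 5.78 in mutant. Acta2 was the brightest of these markers on every array, so it weighs most in their summed signal. The summed signal of 20 mesenchymal markers was 12.84 to 13.32 on the AECII arrays and 12.97 to 13.82 on the AECI arrays, and 0 of them were called between the populations (limma, 2 at an unadjusted p under 0.05). The part of mesenchymal cells in these values was not tested.

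Of the other ligands within the olfactory range, Wnt16 (2.36 to 2.91) and Wnt3 (2.89 to 3.85) were dim on every array, and Wnt8a ranged from 2.56 to 4.04. Wnt2, the mesenchymal partner of Wnt2b, ranged from 3.04 to 4.52, with its highest signal on mutant AECI replicate 1. Wnt9b was 3.05 to 4.46 on the AECII arrays and 3.79 to 5.41 on the AECI arrays, and Wnt10b, a ligand that favors bone over fat, was 3.70 to 4.98 and 3.14 to 4.55. The spots of Wnt10b went opposite ways between the populations in WT (-1.26 and 1.46).

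Wls, the carrier that all lipid-modified WNT proteins need for export, ranged from 12.09 to 12.91 on all arrays. The 4 AECI arrays (12.60 to 12.91) barely cleared the 4 AECII arrays (12.09 to 12.60), and the difference of 0.35 was not called. Its other spot gave 0.44. Porcn, the enzyme that adds the lipid, ran the other way, with 5.99 and 6.03 in AECI of WT lungs and 5.66 and 6.56 in AECI of mutant lungs, against 6.55 and 7.81 in AECII of WT and 7.65 and 6.99 in AECII of mutant lungs. Its difference of -1.19 (95% CI -2.04 to -0.34, adjusted p = 0.0747) did not pass the threshold.

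**Figure D2:**
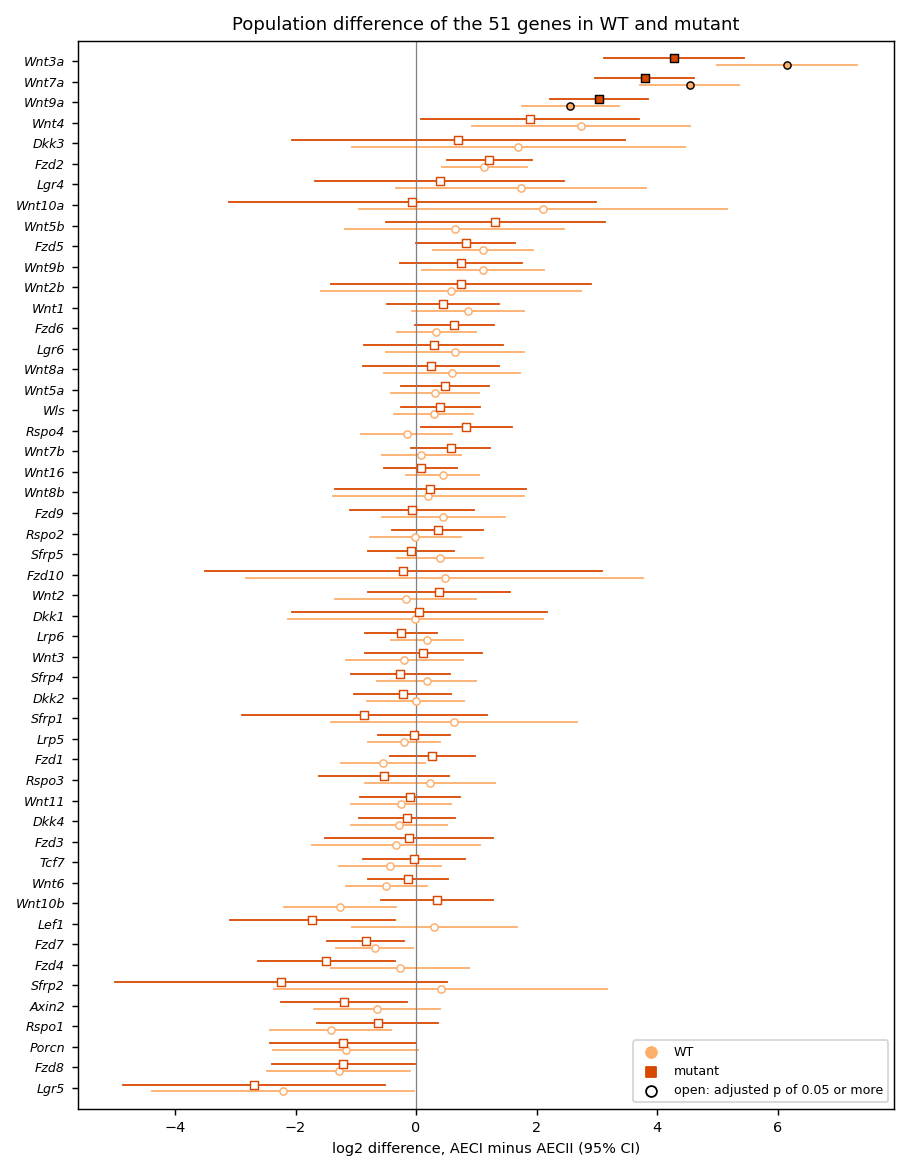
Log2 difference between AECI and AECII for the 51 genes in WT (circles) and mutant (squares), with 95% confidence intervals from limma. Filled symbols mark an adjusted p under 0.05, and genes are ordered by the mean of both genotypes. Only Wnt3a, Wnt7a and Wnt9a are filled, in both genotypes, between 2.56 and 6.16.

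Among the Frizzleds, the membrane receptors of WNT ligands, 7 of 10 lay outside the olfactory range, and 3 were called with the genotypes averaged. Fzd2 was higher in AECI, with 12.53 and 12.32 in AECI of WT lungs and 12.51 and 12.10 in AECI of mutant lungs, against 11.33 and 11.26 in AECII of WT and 11.35 and 10.83 in AECII of mutant lungs. The populations did not overlap, and the difference of 1.17 (95% CI 0.67 to 1.67, adjusted p = 0.0115), a 2.25-fold change, was called under all alternatives run. Fzd5, which with Fzd8 forms a closely related pair, was higher in AECI too, with 11.48 and 11.78 in AECI of WT lungs and 10.74 and 11.38 in AECI of mutant lungs, against 10.54 and 10.51 in AECII of WT and 10.57 and 9.91 in AECII of mutant lungs. Its difference of 0.96 (95% CI 0.38 to 1.55, adjusted p = 0.0435) was lost in 7 of the 8 fits that left out an array (adjusted p up to 0.13), all but that without mutant AECI replicate 1. The other Fzd5 spot gave -0.12, and with the mean of both spots the adjusted p was 0.37.

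Fzd7, a receptor found on several stem cell types, was lower in AECI. Its signals were 10.79 and 10.53 in AECI of WT lungs and 10.82 and 10.42 in AECI of mutant lungs, against 11.44 and 11.25 in AECII of WT and 11.51 and 11.40 in AECII of mutant lungs. The populations did not overlap and the difference was -0.76 (95% CI -1.21 to -0.31, adjusted p = 0.0412), a 1.69-fold change. The call was lost without any 1 of the 8 arrays (adjusted p 0.0546 to 0.124) and with median centring of each array (0.0752), although the direction was kept. Fzd8 had a larger difference of -1.25 (95% CI -2.08 to -0.41) with more spread (adjusted p = 0.061), since mutant AECI replicate 1 read 7.57 and the other AECI arrays 5.98 to 6.49, against 7.37 to 8.24 in AECII. Fzd6, a planar polarity receptor, was 9.92 to 10.47 in AECII and 10.66 to 10.91 in AECI without overlap, a difference of 0.48 (adjusted p = 0.163). Fzd1 ranged from 8.17 to 9.16, with overlap of the populations once the genotypes were pooled. Within each genotype its populations did not overlap but went opposite ways (-0.54 in WT and 0.27 in mutant, neither called). Within the olfactory range, Fzd3, a receptor of axon guidance, was 4.24 to 5.99 and Fzd9 2.97 to 4.56. Fzd4, which serves norrin as well as WNT ligands, was 5.42 to 7.18 in AECII and 4.84 to 5.69 in AECI. Its difference in mutant was -1.49 (adjusted p = 0.129), and -0.92 without mutant AECII replicate 1.

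The populations did not overlap for 10 of the 51 genes with the 4 AECI arrays set against the 4 AECII arrays, 9 of them higher in AECI (Wnt3a, Wnt4, Wnt5a, Wnt7a, Wnt9a, Fzd2, Fzd5, Fzd6 and Wls) and Fzd7 lower. Over all genes 22% did not overlap. Lrp5 and Lrp6, the co-receptors of the beta-catenin branch, moved little on the spots used. Lrp5 ranged from 9.82 to 10.26 and Lrp6 from 9.55 to 10.02 over all 8 arrays, with differences of -0.12 (95% CI -0.54 to 0.30) and -0.03 (95% CI -0.45 to 0.39) between the populations. The other Lrp6 spot was nearly as bright (mean 9.21) and gave -0.45, so the Lrp6 reading depends on the spot. The other Lrp5 spot (mean 5.97) gave -0.30.

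**Figure D3:**
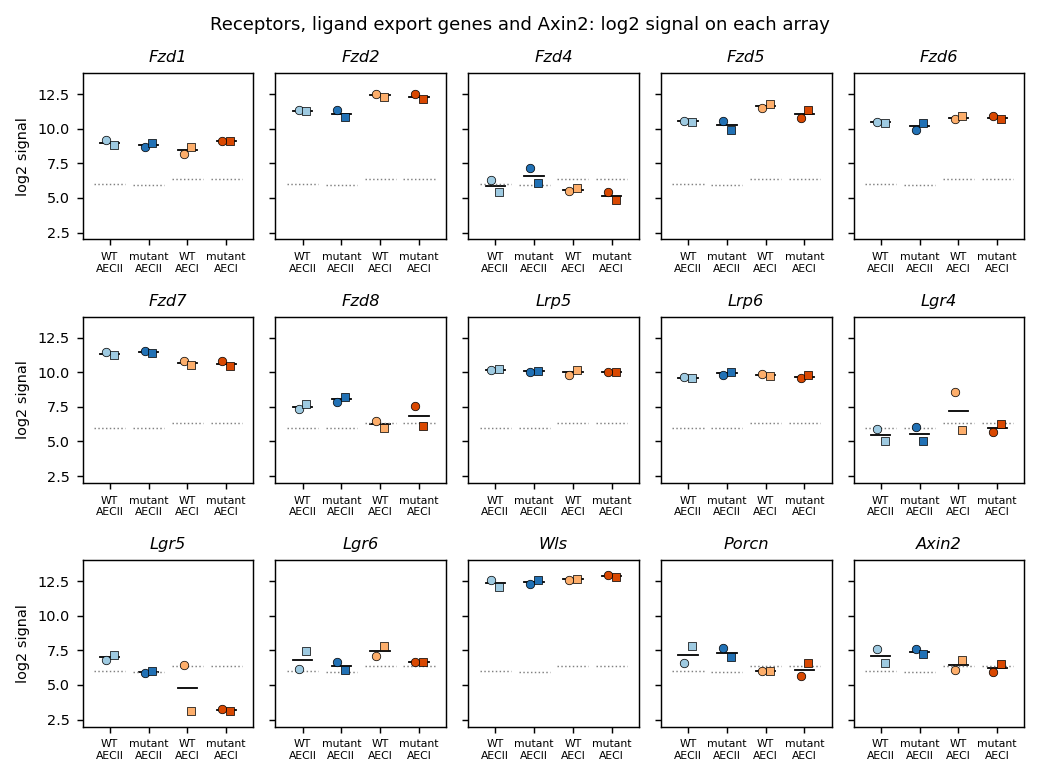
Log2 signal of the Frizzleds outside the olfactory range, Lrp and Lgr receptors, the export genes Wls and Porcn, and Axin2, by group, drawn as for the ligands (circles replicate 1, squares replicate 2, bars group means of 2 arrays, dotted lines the olfactory 95th percentile). Fzd2 and Fzd5 are higher and Fzd7 is lower in AECI, and Lrp5 and Lrp6 stay between 9.55 and 10.26.

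Lgr4, Lgr5 and Lgr6 bind R-spondins, and Lgr5 marks stem cells of the intestine. Lgr5 had signals of 6.42 and 3.15 in AECI of WT lungs and 3.28 and 3.15 in AECI of mutant lungs, against 6.84 and 7.15 in AECII of WT and 5.83 and 5.98 in AECII of mutant lungs. All arrays but WT AECI replicate 1 followed the order of the populations, with 3.15 to 3.28 on the other AECI arrays. The difference of -2.45 (95% CI -3.99 to -0.91, adjusted p = 0.0492) was just past the threshold and was lost in 6 of the 8 fits that left out an array (adjusted p 0.114 to 0.138), while it grew to -3.27 without WT AECI replicate 1 and then was called in WT and in mutant as well, and shrank to -1.63 without WT AECI replicate 2. On 3 of the 4 AECI arrays Lgr5 lay below the olfactory 95th percentile, and with these raised to it AECII was 1.03-fold higher over both genotypes. In mutant the Lgr5 signals of AECII lay below that percentile as well, so the difference there carries little weight. The other Lgr5 spot gave -1.74. Lgr4 read 8.57 on WT AECI replicate 1 and 5.02 to 6.23 elsewhere, and Lgr6 ranged from 6.09 to 7.85 with overlapping groups. The R-spondins lay within the olfactory range. Rspo2 ranged from 2.49 to 3.25, Rspo3 from 2.65 to 3.82 and Rspo4 from 3.91 to 5.36. Rspo1 was 4.47 to 4.97 in AECII and 2.97 to 4.52 in AECI, a difference of -1.03 (adjusted p = 0.0654).

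No Sfrp or Dkk gene, the secreted antagonists, was called in any comparison. Sfrp5 lay near the olfactory limit at 5.83 to 6.48, and Sfrp4 was 3.13 to 3.93. Sfrp2 had 8.98 and 6.87 in AECI of WT lungs and 2.94 and 6.57 in AECI of mutant lungs, against 7.34 and 7.70 in AECII of WT and 6.87 and 7.12 in AECII of mutant lungs, so that the mutant AECI arrays differed by 3.63. The Dkk genes ranged from 2.43 to 5.24, apart from Dkk3, a divergent member of its family, on WT AECI replicate 1 (7.12).

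Several of these genes were high on that array alone. On WT AECI replicate 1, 7 of the 51 genes exceeded every other array by more than 1 on the log2 scale (Wnt10a, Wnt5b, Fzd10, Lgr4, Sfrp1, Sfrp2 and Dkk3), against 1.65% of all genes, and no more than 1 of the 51 did so on any other array. Wnt10a, a ligand of tooth and skin appendage development, was 7.34 there and 2.61 to 4.12 on the other arrays, and Fzd10 was 7.12 against 2.47 to 5.30. The same array held Krt5 at 12.30 (3.06 to 7.77 elsewhere), Krt14 at 12.32 (2.92 to 5.90), Dapl1 at 9.08 (2.86 to 4.01) and Col17a1 at 11.25 (6.002 to 6.69), all markers of basal cells of stratified and airway epithelium. Trp63, the transcription factor that defines basal cells, was 13.8 to 14.1 on all arrays with the spot used here and did not set this array apart. The median of the 8 markers was 11.18 there and 4.87 to 6.87 on the other arrays. Their summed signal, most of it from Trp63 on the other arrays, was 14.91 there and 13.84 to 14.20 on the others. The part of basal cells in the WNT values was not tested. Without this array, 5 genes were called between the populations over both genotypes, namely Wnt3a, Wnt7a, Wnt9a, Fzd2 and Lgr5. In WT, Lgr5 was then called in addition to Wnt3a, Wnt7a and Wnt9a.

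**Figure D4:**
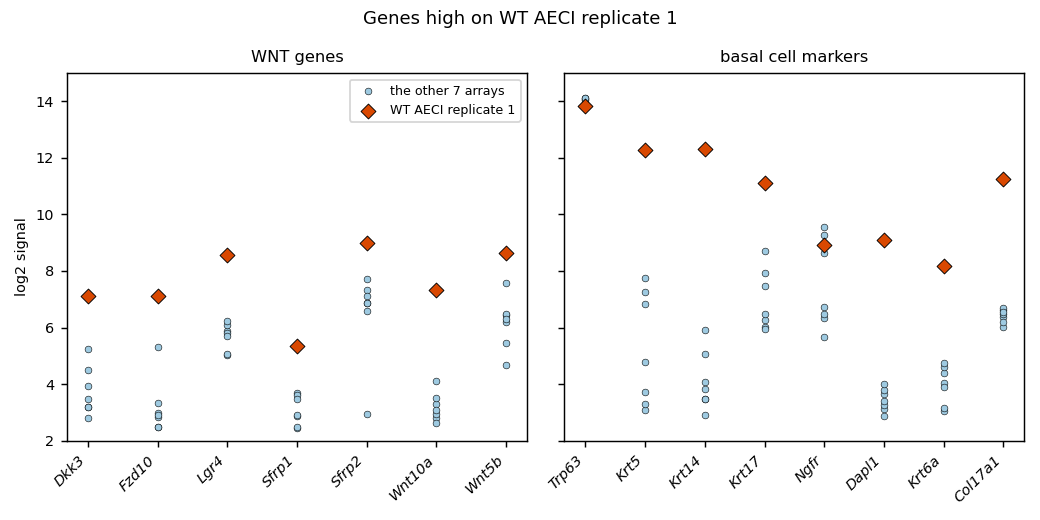
Log2 signal of the 7 WNT genes that were more than 1 higher on WT AECI replicate 1 than on every other array (left) and of the 8 basal cell markers (right). Diamonds are WT AECI replicate 1 and circles the other 7 arrays. Krt5 and Krt14 reach 12.3 on this array, and Trp63 is near 14 on all arrays.

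At the nuclear end of the pathway, Axin2 was 6.07 and 6.79 in AECI of WT lungs and 5.91 and 6.50 in AECI of mutant lungs, against 7.57 and 6.59 in AECII of WT and 7.56 and 7.23 in AECII of mutant lungs. The groups overlapped by a small margin, and the difference of -0.92 (95% CI -1.66 to -0.18, adjusted p = 0.105) was not called. The other Axin2 spot gave -0.80. Tcf7, a TCF factor, ranged from 6.05 to 7.36. Lef1, its relative, lay within the olfactory range in all groups, with its highest signal of 5.36 on mutant AECII replicate 2, and its other spots differed by 0.01 and -0.02 between mutant and WT AECII.

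The wider pathway was read from 4 lists. Of 19 feedback and target genes, 5 were lower (26.3%, against 9.01% of all genes) and 1 was higher (5.26%, against 5.8%) in AECI with the genotypes averaged, with a median difference of -0.16 against 0.01 over all genes. Sp5, a direct beta-catenin target, was 8.35 to 8.72 on the AECII arrays and 4.65 to 5.77 on the AECI arrays, and its difference of -3.36 (95% CI -3.78 to -2.93, adjusted p = 0.000152) was called in both genotypes. All 4 AECI arrays lay below the olfactory 95th percentile for Sp5, and with them raised to it AECII was 4.48-fold higher over both genotypes. Bambi, a pseudoreceptor that dampens TGF-beta signals, differed by -2.08, the cyclin gene Ccnd1 by -1.41 and Sox9, a factor of the distal lung tip, by -1.53. Bmp4, a growth factor of the lung bud, was the gene that was higher.

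Of 25 genes of the destruction complex and signal transduction, 4 were lower (16%, against 9.01% of all genes) and 0 higher (against 5.8%) in AECI. They were Pygo1 (-3.83) and Bcl9 (-0.75), which form a coactivator with beta-catenin, the corepressor gene Tle1 (-1.03) and Ctnnbip1 (-0.90), an inhibitor of beta-catenin. The median of this list was -0.09. Pygo1 was 8.14 to 8.91 on AECII arrays and 2.88 to 5.86 on AECI arrays, all of the latter below the olfactory 95th percentile. With these AECI arrays raised to it, Pygo1 was 4.997-fold higher in AECII over both genotypes. Of 21 genes of alternative receptors and planar cell polarity, 2 were higher and 2 lower, which makes 19.0% called against 14.8% of all genes. The formins Daam2 and Daam1, which bind Dishevelled, moved in opposite directions. Daam2 was 5.18 to 6.69 in AECII and 8.79 to 9.31 in AECI, a difference of 3.02 (95% CI 2.40 to 3.65, adjusted p = 0.000617). This difference was 7.07-fold with the AECII array below the olfactory 95th percentile raised to it. Daam1 was 10.77 to 11.15 in AECII and 9.05 to 9.76 in AECI, a difference of -1.57 (95% CI -2.09 to -1.05, adjusted p = 0.00398). Celsr1, a polarity cadherin, differed by -1.33 and Prickle1 by 0.94. Prickle3 was called in WT (2.27) and not in mutant, and the difference of the mutant effects was not called for it.

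Of 27 other secreted and membrane modulators, 2 were higher (7.41%, against 5.8% of all genes) and 4 lower (14.8%, against 9.01%) in AECI. Tspan12, a tetraspanin of the norrin receptor complex with Fzd4, was 9.29 to 9.87 in AECII and 4.09 to 7.21 in AECI. Its difference was -3.76 (95% CI -4.64 to -2.88, adjusted p = 0.000966), or 7.81-fold with the 3 dim AECI arrays raised in the same way. Sulf2, an enzyme that trims heparan sulfate, differed by -2.70, or 4.23-fold with its 2 dim AECI arrays raised. Tpbg, a membrane protein that can inhibit the beta-catenin branch, differed by -1.90. Kremen1, a receptor for Dkk proteins, was higher by 1.04. Frzb, a relative of the Sfrp genes, was called in mutant (1.32) at signals of 2.58 to 4.24, within the range of olfactory receptor genes.

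The comparisons of mutant with WT asked how these genes differed between the genotypes in each population. Since Xist and Uty split the arrays by genotype, an effect of Fgfr2b inhibition cannot be told apart from one of sex for any gene here. Limma called 0 of the 51 genes in AECII, against 0.0122% of all genes, and 7 of the 51 had an unadjusted p under 0.05 (4.41% of all genes). It called 0 in AECI, against 0.0163% of all genes, with 4 at an unadjusted p under 0.05 (7.64% of all genes). The smallest adjusted p of a WNT gene was 0.89 in AECII and 0.524 in AECI. With the populations averaged, 0 were called, against 0.0448% of all genes, and 6 had an unadjusted p under 0.05 (7.60% of all genes). The difference of the mutant effects between AECI and AECII was called for 0 genes of the list and 0% of all genes. For it, 3 of the 51 had an unadjusted p under 0.05 (4.71% of all genes). None of the 4 pathway lists had a called gene in any of these comparisons.

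The values behind the smallest p-values are given as measured. In AECII, Wnt3a was 4.54 and 3.60 in WT and 5.70 and 6.63 in mutant, without overlap, a difference of 2.10 (95% CI 0.93 to 3.26, limma adjusted p = 0.89). In AECI its difference was 0.21 (95% CI -0.95 to 1.38). On the same AECII arrays 13 of 20 AECI markers had an unadjusted p under 0.05, all higher in mutant, with a median difference of 1.05 over the list, and 0 were called. Their summed signal was 15.91 to 16.03 in WT AECII and 16.42 to 16.84 in mutant AECII. The part of AECI cells in the Wnt3a value was not tested. Wnt7a differed by 0.60 in AECII on the spot used and by 1.10 on its other spot.

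Other small p-values in AECII belonged to dim genes. Rspo4 was 4.74 and 5.36 in WT and 4.25 and 3.91 in mutant (difference -0.96). Wnt6 was 4.39 and 4.44 in WT and 3.53 and 3.68 in mutant (-0.81), and Wnt8b, a ligand of the embryonic forebrain, 5.50 and 4.84 in WT and 3.18 and 3.82 in mutant (-1.67). Lef1 differed by 1.42, which rested mostly on mutant AECII replicate 2 (5.36, against 3.69 on its replicate and 2.62 and 3.59 in WT) and was 0.59 without it. All 4 were within the olfactory range.

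In AECI, Wnt9a was 5.71 and 6.13 in WT and 7.34 and 6.72 in mutant, a difference of 1.11 (95% CI 0.30 to 1.91, limma adjusted p = 0.524). On the same AECI arrays 12 of 20 AECII markers had an unadjusted p under 0.05, all lower in mutant, with a median difference of -0.785 over the list, and 0 were called. Their summed signal was 16.85 to 17.02 in WT AECI and 16.30 to 16.48 in mutant AECI, and the part of AECII cells in these values was not tested. Sfrp2 differed by -3.17 (95% CI -5.93 to -0.41), resting on 8.98 in WT AECI replicate 1 and 2.94 in mutant AECI replicate 1. It was -2.11 without the former and -1.35 without the latter array. Wnt9b was 4.68 and 5.41 in WT and 4.02 and 3.79 in mutant (-1.13). Wnt8b was 6.44 and 4.31 in WT and 3.80 and 3.68 in mutant (-1.64), a difference that fell to -0.57 without WT AECI replicate 1. Fzd1 was 8.17 and 8.70 in WT and 9.07 and 9.14 in mutant (0.67), or 0.40 without that array. With the populations averaged, Wnt9a differed by 0.87, Wnt8b by -1.66, Wnt3a by 1.16, Wnt6 by -0.64 and Wnt9b by -0.95, with adjusted p from 0.545 to 0.6. All 4 mutant arrays lay below all 4 WT arrays for Wnt6 and Wnt8b, both dim, which makes 2 of 51 genes against 2.55% of all genes. Axin2 differed by 0.05 over both populations (SE 0.31), with no called change in either. Between the populations, the mutant effect differed most by p for Wnt10b (1.61, 95% CI 0.29 to 2.92), whose other spot gave mutant effects of 0.47 in AECII and 0.07 in AECI, then for Wnt3a (-1.88, 95% CI -3.52 to -0.24) and Lef1 (-2.02, and -1.19 without mutant AECII replicate 2), followed by Rspo4 (0.99) and Fzd1 (0.81), each with an adjusted p of 0.999.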

How the data were processed

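RNA of sorted AECI and AECII was amplified as cDNA, labeled with Cy5 and hybridized to 8 single-color arrays, per the labels. The authors deposited log2 signals that were already normalized between arrays. Their processing notes name limma without a version. All arrays had a median of 5.01 and a 75th percentile of 8.06, as quantile normalization gives, which removes changes in the total amount of RNA. Values ran from 2.27 to 15.99. The sources used here give no background correction, spot filter or detection limits, and the number of arrays limits the precision.

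Of 62976 spots, 43941 had 1 gene symbol in the platform annotation, 0 several and 19035 none. Accessions of 33708 spots matched the RefSeq table of GRCm38.p6, through which 965 symbols were updated, none of them in the WNT list. After 57 named spots with a missing value were left out, 24568 genes remained, each represented by its brightest spot. Group means were fitted to all 8 arrays with lmFit and eBayes (limma 3.58.1, R 4.3.3; 4 residual and 2.87 prior degrees of freedom; median residual SD 0.392), for 7 comparisons, each adjusted by Benjamini-Hochberg over the 24568 genes. The test was tested on simulated data. Intervals are 95% confidence intervals of limma. The p-values measure the spread between arrays submitted as biological replicates.

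The genes and lists were chosen with earlier results of these data known. The text gives every gene past the threshold and, per comparison, the 5 of the 51 with the smallest p, with up to 4 called genes of each pathway list. The motifs, the flanking genes and other genes named by value were chosen after values were seen. Promoters came from RefSeq. The labels do not say whether equal replicate numbers pair the samples. Deviations of same-numbered arrays correlated little over all genes (-0.07 to 0.03). This does not settle pairing, which may touch few genes, and the main fit used no block. Alternatives covered normalization, filters, spots, prior, weights, block, threshold, symbols and leaving out each array. Tables and plots used Python 3.11.15, pandas 2.3.3 and matplotlib 3.10.9.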

Additional observations from a re-analysis of the deposited data

How the results depend on the processing

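The alternatives were run on the counts of WNT genes called in the 7 comparisons and on 38 differences of single WNT genes, those named by the rule, and none of the latter changed direction. The genes of the pathway lists and the other WNT differences printed were not put through them, apart from the calls counted here. Between AECI and AECII, Wnt3a and Wnt7a were called in each genotype and over both under all of them, and Wnt9a under all in which it was tested but the WT fit without WT AECII replicate 1. Leaving out the lowest 50% of genes removed Wnt9a from the test. The count of WNT genes called in WT was 3, and it was 6 with a trended and robust prior, 5 at an adjusted p under 0.1, and 2 to 5 without each array in turn. In mutant it was 3, and it was 5 when the spots of a gene were averaged, 5 with a trended and robust prior, and 3 to 4 without each array in turn. Over both genotypes it was 8, and it was 5 with the replicate block, in which Fzd5, Fzd7 and Lgr5 were lost, 12 at an adjusted p under 0.1, 10 with a trended and robust prior, and 4 to 8 without each array in turn. In these leave-one-out fits the spread of the group left with a lone array was taken from the other groups. With the replicate block the counts were 3 in WT and 3 in mutant. For mutant with WT in either population or over both, and for the difference of the mutant effects, the count was 0 under every alternative. The cause of these shifts was not tested, apart from the looser threshold and the smaller number of arrays, which act by construction. Of the genes not called within a genotype, Fzd2 was called in WT under 3 and in mutant under 6 of 19 alternatives and Wnt4 in WT under 3. Lgr5 was gained in mutant under 3 and Fzd7 in mutant under 2, while Fzd4 in mutant and Fzd5, Lgr5, Lgr4 and Wnt10a in WT were gained under 1 each, the last pair without WT AECI replicate 2. Over both genotypes, Fzd8 and Porcn were gained under 4 each, Rspo1 under 2, and Fzd4, Lgr4, Wnt10a and Wnt9b under 1 each. Signals within the olfactory range limit what can be said of 24 of the 51 genes.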
